A study of Homo sapiens with 6 samples.

Results

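Of the 58735 genes in the deposited tables, 6 are enzymes of the pentose phosphate pathway considered here: PGLS, PGD, RPIA, RPE, TKT and TALDO1. They were given as a list of gene names, and all 6 had enough counts to be tested among 14458 genes. RNA was measured in the lung adenocarcinoma cell line A549, in 3 libraries labelled OE_GPX3, whose genotype and treatment are given as overexpression (OE), and 3 labelled Vector, whose genotype and treatment are given as WT. GPX3 is a selenium-containing glutathione peroxidase that is secreted and reduces peroxides with glutathione. The labels name neither the vector nor its promoter, and do not say whether a group is 1 clone or a pool. Nor do they say that replicates were grown separately, so p-values reflect the spread of these libraries alone, possibly a technical one.

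The pentose phosphate pathway takes glucose 6-phosphate out of glycolysis. Its oxidative branch makes NADPH, the reducing power behind glutathione and thioredoxin recycling and fat synthesis, and yields ribulose 5-phosphate. Its non-oxidative branch turns that sugar into ribose 5-phosphate for nucleotides, and shuttles carbon back to glycolysis through reversible reactions. A549 cells carry an inactivated KEAP1, which leaves the transcription factor NRF2 (gene NFE2L2) active, and PGD, TKT and TALDO1 are known NRF2-responsive genes.

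The start regions of 4 members are shown because PGD, TKT and TALDO1 carry nearly all of the pathway's RNA here and RPE had the lowest fold change of the 6. Each runs from 250 bases before to 50 bases after the RefSeq start (RefSeq, GRCh38.p14). Capitals mark, on either strand, the GC box GGGCGG, the CCAAT box CCAAT and the antioxidant response core TGACNNNGC, the motif that NRF2 binds with small MAF proteins. Neighbouring matches may overlap or touch and then run together.
PGD, chr1:10398814-10399113, plus strand: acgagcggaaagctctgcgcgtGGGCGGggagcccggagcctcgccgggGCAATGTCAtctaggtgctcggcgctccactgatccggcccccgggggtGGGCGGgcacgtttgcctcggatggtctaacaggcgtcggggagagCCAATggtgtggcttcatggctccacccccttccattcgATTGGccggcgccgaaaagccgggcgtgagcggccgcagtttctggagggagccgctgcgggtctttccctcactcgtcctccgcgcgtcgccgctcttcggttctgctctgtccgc
TKT, chr3:53255973-53256272, minus strand: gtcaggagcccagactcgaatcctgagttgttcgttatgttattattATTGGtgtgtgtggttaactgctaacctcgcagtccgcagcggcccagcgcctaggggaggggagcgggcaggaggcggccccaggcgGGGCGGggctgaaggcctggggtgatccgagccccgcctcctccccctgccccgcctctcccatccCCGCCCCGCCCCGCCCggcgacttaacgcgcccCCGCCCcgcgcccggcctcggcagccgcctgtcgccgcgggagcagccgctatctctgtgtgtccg
TALDO1, chr11:747214-747513, plus strand: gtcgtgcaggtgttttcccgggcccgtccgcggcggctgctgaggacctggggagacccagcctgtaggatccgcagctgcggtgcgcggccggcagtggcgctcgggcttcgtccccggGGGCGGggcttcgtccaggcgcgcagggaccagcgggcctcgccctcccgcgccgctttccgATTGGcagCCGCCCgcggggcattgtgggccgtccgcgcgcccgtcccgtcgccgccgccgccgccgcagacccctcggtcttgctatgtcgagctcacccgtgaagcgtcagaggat
RPE, chr2:210002388-210002687, plus strand: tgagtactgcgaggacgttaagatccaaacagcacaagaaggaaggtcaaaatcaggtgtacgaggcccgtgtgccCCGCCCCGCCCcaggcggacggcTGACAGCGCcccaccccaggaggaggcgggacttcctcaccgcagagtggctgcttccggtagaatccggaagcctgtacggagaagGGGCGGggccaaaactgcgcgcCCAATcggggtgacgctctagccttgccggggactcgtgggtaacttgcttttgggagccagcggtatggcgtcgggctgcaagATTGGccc

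All 6 members had 1 entry in the RefSeq promoter table. The GC box was found in 6 of 6, with 5 matches in TKT, 3 in RPE and 2 each in PGD and TALDO1, and 45.0% of the 35116 promoters in the table hold it. The CCAAT box was found in 5 of 6, all but PGLS, and in 34.6% of the table. The antioxidant response core was found in PGD and RPE, 1 match each, and in 13.3% of the table. The E-box CACGTG and the TATA box TATAAA were found in 0 of 6, and in 7.26% and 11.5% of the table. These matches describe the letters of the window and locate no bound factor.

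GPX3 itself checked the labels, with counts of 23372, 17470 and 20984 in OE_GPX3 and 638, 658 and 648 in Vector. Total counts per library ran from 15831693 to 17742307 in OE_GPX3 and from 16373203 to 18751815 in Vector. The protocol in the labels describes a small RNA library, whereas nuclear protein-coding genes took 91.1% to 92.5% of the counts. Mitochondrial chromosome genes took 6.19% to 6.55% in OE_GPX3 and 6.81% to 7.52% in Vector, and the part of this difference in the results was not tested. Of the epithelial markers EPCAM, KRT8, KRT18, KRT19 and CDH1, 5 of 5 were tested, and their summed level was 23691 to 31955 CPM in OE_GPX3 and 20587 to 22879 CPM in Vector. Markers of other cells were low in both groups. The 6 fibroblast markers summed to 3.36 to 7.07 CPM in OE_GPX3 and 4.35 to 4.71 CPM in Vector, the 6 leukocyte markers to 16.5 to 17.8 and 12.5 to 16.9 CPM, most of it CD14, and the 4 endothelial markers to 0.505 to 0.826 and 0.339 to 0.978 CPM, with KDR at 0 in all 6 libraries.

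The pathway's RNA was very uneven between its enzymes. Levels between genes were compared in the authors' FPKM, which divide counts by gene length and by a library constant. PGD averaged 714 ± 50.4 FPKM over the 6 libraries (SD, n = 6) and ranked 54 of the 14458 tested genes. TKT averaged 309 ± 30.5 FPKM (SD, n = 6) and TALDO1 250 ± 18.8 FPKM (SD, n = 6), ranks 119 and 152. PGLS followed at 26.7 ± 2.59 FPKM (SD, n = 6), rank 1703, then RPE at 9.65 ± 0.934 and RPIA at 6.93 ± 0.540 FPKM (SD, n = 6 each), ranks 4025 and 4957.

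This order held within each of the 6 libraries, all divided by the same gene lengths. These were 9507 bases for TKT and 2966 for PGD, and other lengths were not tried. In counts TKT was above PGD, at means of 50952 and 37427 in OE_GPX3 and 50647 and 36004 in Vector. The order of TKT and PGD therefore depends on the lengths used. PGD was 2.22 to 2.63 times TKT in FPKM, and TALDO1 was 8.91 to 10.2 times PGLS. PGLS was 2.50 to 3.72 times RPE. The order was closest for TKT over TALDO1, at 1.19 to 1.30 times, and for RPE over RPIA, at 1.08 to 1.61 times. Across libraries the ranges of TKT and TALDO1 overlapped, since the lowest TKT value was 276 FPKM and the highest TALDO1 value 280 FPKM, whereas those of RPE and RPIA did not, at a lowest 7.97 FPKM and a highest 7.57 FPKM. Of the 6 members' summed FPKM, PGD made up 53.2% to 57.2%, TKT 21.7% to 24.2% and TALDO1 18.1% to 19.7%. PGLS made up 1.77% to 2.12%, RPE 0.569% to 0.836% and RPIA 0.448% to 0.628%.

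**Figure D1:**
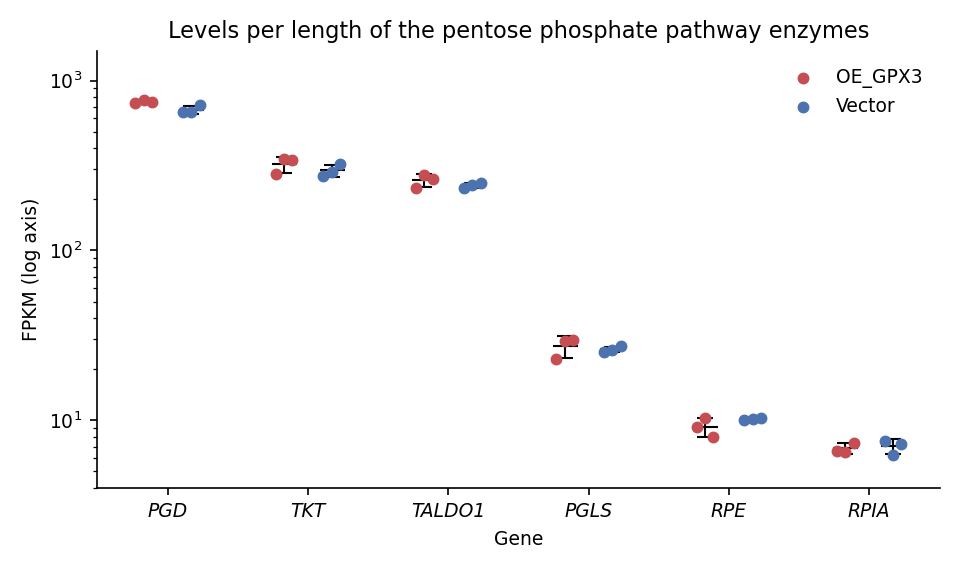
Deposited FPKM (log axis) of each enzyme in the 3 OE_GPX3 and the 3 Vector libraries, ordered by mean level; points are libraries, and bars are the mean and SD of a group. PGD, TKT and TALDO1 stand between 232 and 771 FPKM, while PGLS, RPE and RPIA stand at 29.6 FPKM or below.

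Whether GPX3 overexpression went with a different level of these enzymes was asked for each gene on CPM, the counts scaled to library size and by TMM factors, within the edgeR fit over all tested genes. None of the 6 passed an adjusted p of 0.05: edgeR's quasi-likelihood test called 0 of 6 members, against 0.263% of all genes tested (38 genes), or 0 of 6 higher against 0.0968% and 0 of 6 lower against 0.166%. At an unadjusted p under 0.05 edgeR also had 0 of 6, while 14.6% of all tested genes passed that line. DESeq2 and limma called 0 of 6 as well. The 38 calls comprised 14 higher and 24 lower genes, beside 13 and 55 under total counts alone, 14 and 38 under upper-quartile scaling, and 68 and 48 in DESeq2, which changes both the scaling and the test. Without OE_GPX3 replicate 1 the count was 657, without Vector replicate 1 it was 116, and without OE_GPX3 replicate 3, Vector replicate 2 or OE_GPX3 replicate 2 it was 12, 4 and 1, with 0 of 6 members called in each.

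In the oxidative branch, PGLS hydrolyses the lactone to 6-phosphogluconate. It lies on chromosome 19, 17511629 to 17521288, plus strand (ENSG00000130313; hg38, as for all positions from the deposited table). PGLS had 65.5, 83.5 and 84.0 CPM in OE_GPX3 libraries 1 to 3, against 73.4, 74.8 and 78.0 CPM in Vector. One OE_GPX3 library lay below all Vector libraries and the other two above them. Its log2 fold change was 0.04, and its 95% interval ran from -0.18 to 0.27 (edgeR adjusted p = 0.882). The spread within OE_GPX3 was 13.6% of the mean, beside 2.78% from counting alone, and within Vector 3.14% beside 2.73%.

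PGD oxidises 6-phosphogluconate to ribulose 5-phosphate and makes NADPH. It lies on chromosome 1, 10398592 to 10420144, plus strand (ENSG00000142657). PGD had 2205, 2284 and 2223 CPM in OE_GPX3, against 1971, 1962 and 2137 CPM in Vector. It was the 1 member whose groups did not overlap, each OE_GPX3 library being above each Vector library, as was so for 8.62% of all tested genes in that direction. The means were 2237 ± 41.3 CPM in OE_GPX3 and 2023 ± 98.6 CPM in Vector (SD, n = 3 each), and the log2 fold change was 0.15. The 95% interval of -0.06 to 0.35, or 0.958-fold to 1.28-fold, included no change (edgeR adjusted p = 0.516, rank 4580 of 14458 by p).

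In the non-oxidative branch, RPIA isomerises ribulose 5-phosphate to ribose 5-phosphate and so opens the way to nucleotide synthesis. It lies on chromosome 2, 88691644 to 88750935, plus strand (ENSG00000153574). RPIA had 12.3, 11.9 and 13.6 CPM in OE_GPX3, against 14.2, 11.7 and 13.5 CPM in Vector, and the groups overlapped. Its counts were the lowest of the 6 members, at 202 to 252 per library. The spread within OE_GPX3 was 6.74%, beside 6.90% from counting alone, and within Vector 9.78% beside 6.54%. The log2 fold change was -0.06 with an interval of -0.36 to 0.24, the widest of the 6 (edgeR adjusted p = 0.875).

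RPE epimerises ribulose 5-phosphate to xylulose 5-phosphate, the 2-carbon donor that transketolase uses. It lies on chromosome 2, 210002565 to 210022259, plus strand (ENSG00000197713). RPE had 32.4, 36.1 and 28.0 CPM in OE_GPX3, against 36.1, 36.1 and 36.7 CPM in Vector. The Vector libraries were close together, with a spread of 1.08%, and the OE_GPX3 libraries ran from the Vector level down to 28.0 CPM, a spread of 12.6%. The groups met at their edges, where OE_GPX3 replicate 2 at 36.062 CPM was just above Vector replicate 2 at 36.053 CPM. The log2 fold change was -0.17 (interval -0.42 to 0.07, edgeR adjusted p = 0.511), and -0.07 without OE_GPX3 replicate 3, the lowest library.

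RPE is also the member whose reads are hardest to assign. Of the 3990 distinct 50-base words in its GENCODE release 29 transcripts, 29.9% also occur, on either strand, in a transcript of another gene. KANSL1L, which ends within RPE on the opposite strand, holds 19.7% of them and the intronless paralogue RPEL1 9.95%. The corresponding share was 7.16% for PGLS (with the lincRNA AC010618.3), 4.16% for PGD (with the pseudogene PGDP1), 0.892% for TALDO1 and 0 for RPIA and TKT. No source used here says if strand was used in counting, so counts of RPE and of PGLS where they overlap a neighbour are uncertain. KANSL1L (chromosome 2, 210021423 to 210171383, minus strand) had 20, 23 and 19 counts in OE_GPX3 and 47, 46 and 44 in Vector. Its log2 fold change was -1.05 with an interval of -1.66 to -0.44, which did not pass the adjustment (edgeR adjusted p = 0.119).

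TKT, transketolase, and TALDO1, transaldolase, move 2-carbon and 3-carbon units between sugars and link the pathway to fructose 6-phosphate and glyceraldehyde 3-phosphate. TKT lies on chromosome 3, 53224707 to 53256052, minus strand (ENSG00000163931), and had 2686, 3270 and 3214 CPM in OE_GPX3, against 2671, 2788 and 3082 CPM in Vector. Replicate 1 was lowest in either group, and the groups overlapped. The log2 fold change was 0.10 (interval -0.12 to 0.32, edgeR adjusted p = 0.672), and 0.19 without OE_GPX3 replicate 1. TALDO1 lies on chromosome 11, 747329 to 765024, plus strand (ENSG00000177156), and had 707, 840 and 790 CPM in OE_GPX3, against 708, 736 and 750 CPM in Vector. Of its OE_GPX3 libraries, 1 was at the level of the lowest Vector library and the other two were above all Vector libraries. The log2 fold change was 0.09 (interval -0.12 to 0.30, edgeR adjusted p = 0.699).

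**Figure D2:**
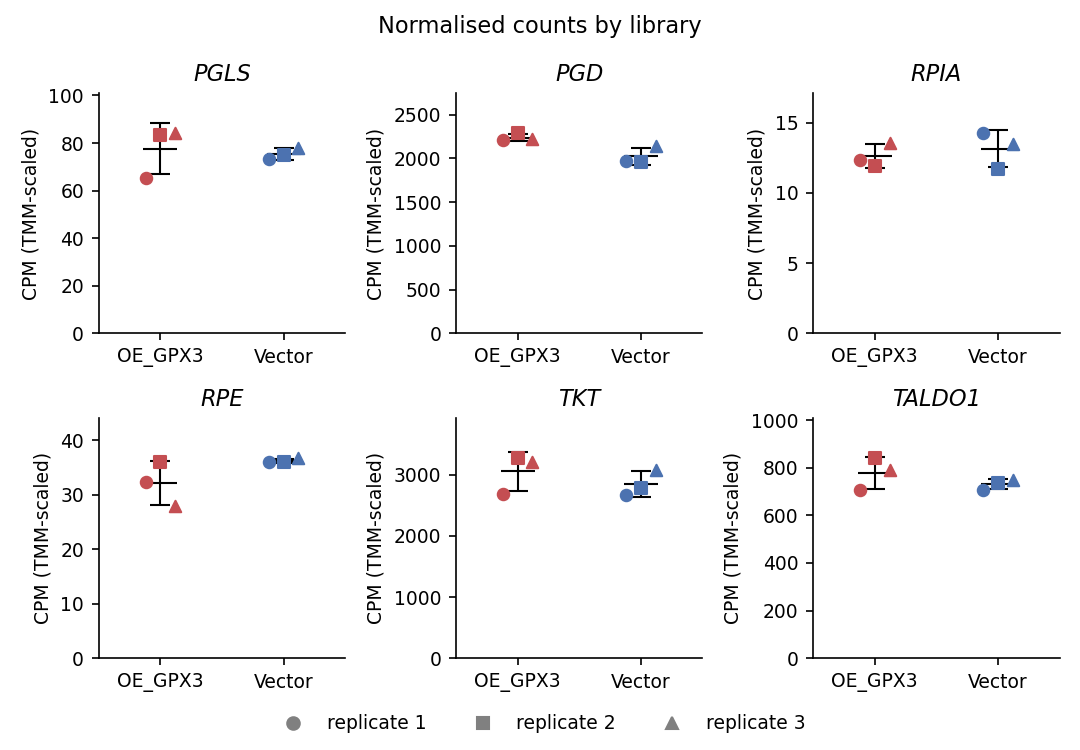
TMM-scaled CPM of each enzyme in the OE_GPX3 and Vector libraries, on axes from 0; symbols mark the replicate and bars the group mean and SD. The groups overlap for each gene but PGD, whose OE_GPX3 libraries start at 2205 CPM and whose Vector libraries end at 2137 CPM.

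The paralogues of these enzymes added almost no counts. RPEL1 had 1, 0 and 5 counts in OE_GPX3 and 0, 5 and 3 in Vector. TKTL1, a transketolase-like gene, had 1 count in 1 OE_GPX3 library and 0 elsewhere, and TKTL2 had 0 in all 6. A count of 0 allows up to 3 counts in a library, or 0.154 to 0.195 CPM at these depths, counting error only. The 8 listed pseudogenes of PGD, RPIA and RPE were at 0 counts in all 6 libraries.

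The 6 intervals give the range of change estimated for each transcript between these groups, and are no firm limits. The log2 fold changes of PGD, TKT, TALDO1 and PGLS were above 0 and those of RPIA and RPE below it, though PGLS stood at -0.02 under scaling by total counts alone. Their median was 0.07, beside -0.02 over all genes tested. The upper ends ran from 1.05-fold for RPE to 1.28-fold for PGD, and the lower ends from 0.748-fold for RPE to 0.958-fold for PGD. Some alternatives reached beyond a member's main interval. On the log2 scale the RPE interval began at -0.52 without OE_GPX3 replicate 2, and that of RPIA at -0.49 without Vector replicate 2. The PGLS interval began at -0.30 after GC and length correction, and that of PGD ended at 0.46 without Vector replicate 3. In these bulk libraries, fewer cells with a transcript and less of it per cell cannot be told apart.

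Base composition moved with the comparison across the whole table. With tested genes split into 5 equal bins by the GC content of their longest transcript, the median log2 fold change was -0.18, -0.12, -0.02, 0.09 and 0.16 from the lowest bin to the highest. RPE, at 36.6% GC, is in the lowest bin, RPIA at 48.6% in the middle one, and PGLS at 61.6% in the highest. PGD at 52.9%, TKT at 56.0% and TALDO1 at 56.5% are in the fourth. After a correction for GC content and length within each library, the log2 fold changes were 0.09 for PGD, 0.04 for TKT, -0.06 for RPIA and -0.004 for RPE. Those of PGLS and TALDO1 changed sign, to -0.12 and -0.02, and 0 of 6 members were called.

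**Figure D3:**
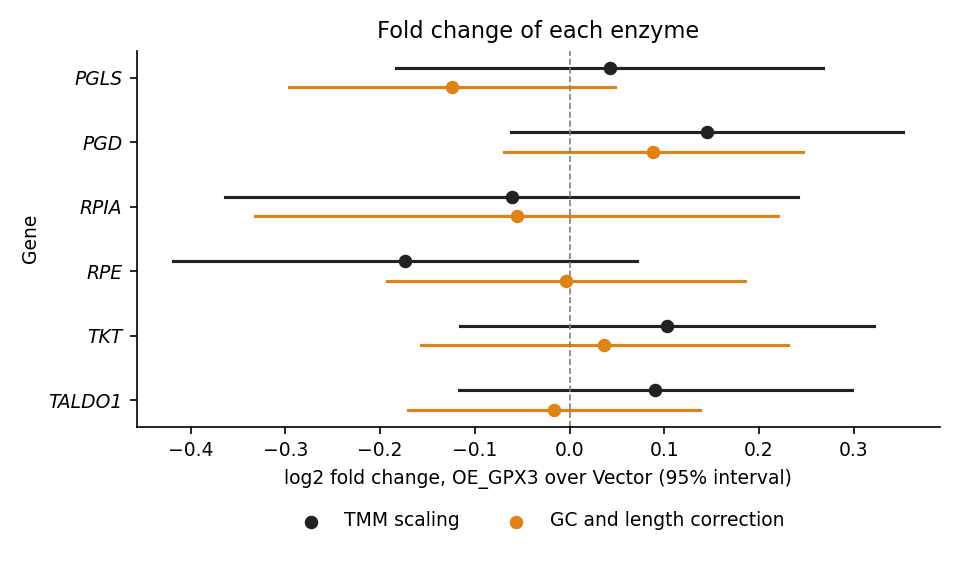
Log2 fold change of OE_GPX3 over Vector for each enzyme with its 95% interval, under TMM scaling (black) and after correction for GC content and length (orange). Each of the 12 intervals includes 0, and RPE is at -0.17 under TMM and at -0.004 after correction.

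**Figure D4:**
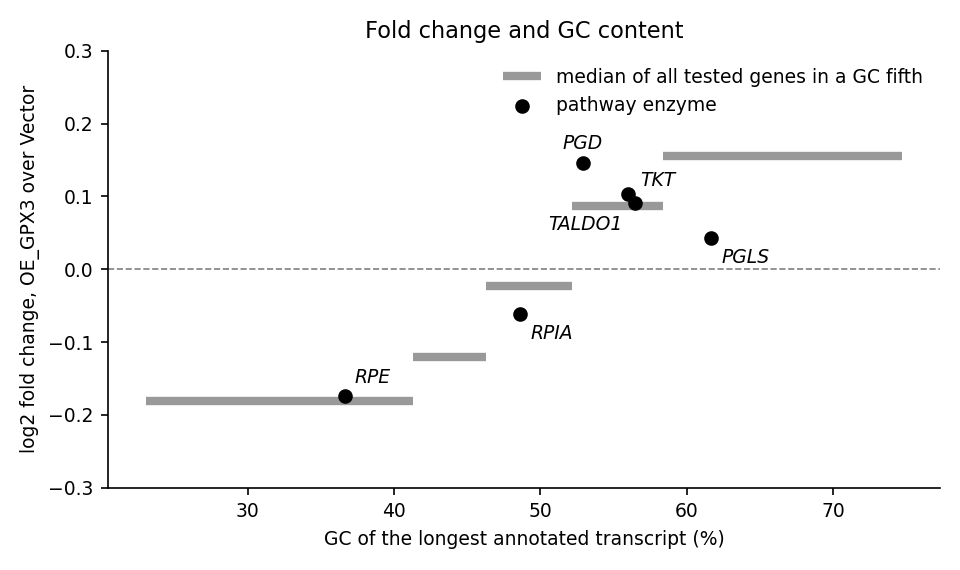
Log2 fold change of OE_GPX3 over Vector against the GC content of the longest transcript; grey bars are medians of all tested genes in each of 5 GC bins, drawn across the bin's GC range, and points are the 6 enzymes. The medians climb from -0.18 to 0.16, and RPE at -0.17 lies beside the median of the lowest bin.

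The members differed in how they varied from library to library. Likeness was measured as the root mean square difference between 2 genes' log2 CPM over the 6 libraries, each centred on its own mean. TKT and TALDO1 were the closest pair at 0.05, and PGLS lay 0.06 from each of them, all 3 being low in OE_GPX3 replicate 1 and high in OE_GPX3 replicate 2. RPE was the farthest from the others, at 0.18 to 0.21. These 6 points share their library, its depth and its GC trend, so the distances describe the libraries and carry no test. PGD departed from TKT and TALDO1 in OE_GPX3 replicate 1, where PGD over TKT was 2.63 in FPKM, against 2.24 and 2.22 in the other two OE_GPX3 libraries and 2.22 to 2.37 in Vector.

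Among 8400 other protein-coding genes of at least 10 mean CPM, the 3 nearest to each member by this distance were KRT7, RPL28 and PRPF6 for PGLS (0.01, 0.02 and 0.03) and GSTK1, NIP7 and EXOC7 for PGD (0.02 each). They were UBAC2, CMTM8 and SLCO3A1 for RPIA (0.04 each) and GCFC2, SNX14 and KYNU for RPE (0.02, 0.02 and 0.03). They were MSRB1, DNPEP and OAZ1 for TKT (0.02 each) and PSMB4, ERGIC3 and RPL3 for TALDO1 (0.02 each). No other member was among the 3 nearest of any of the 6.

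The balance between the branches was also compared, as the summed FPKM of PGLS and PGD over that of RPIA, RPE, TKT and TALDO1. It was 1.44, 1.25 and 1.26 in OE_GPX3 and 1.29, 1.24 and 1.26 in Vector. The ratio was highest in OE_GPX3 replicate 1 and the groups overlapped. The summed FPKM of all 6 members was 1290, 1442 and 1401 in OE_GPX3 and 1204, 1228 and 1331 in Vector, with overlapping groups.

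Genes that use or supply the pathway's sugars gave 0 calls in the same fit. Of 11 genes of ribose phosphate and sugar handling, 10 were tested and edgeR called 0 in either direction (1 at an unadjusted p under 0.05; 0 called in DESeq2 and limma), with 4 above and 6 below 0 and a median of -0.06. PRPS1, which makes phosphoribosyl pyrophosphate from ribose 5-phosphate, had 96.2 ± 4.54 CPM in OE_GPX3 and 93.4 ± 2.76 CPM in Vector (SD, n = 3 each). Smallest by p were SHPK, the kinase that makes sedoheptulose 7-phosphate, at a log2 fold change of 0.43, and PRPSAP2, a partner of that synthetase, at -0.23, or -0.14 after GC and length correction. SHPK overlaps TRPV1 on its own strand, so its counts are uncertain. DESeq2 gave SHPK no adjusted p and so could not call it.

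Of 12 glycolytic genes that share intermediates with the pathway, 11 were tested and edgeR called 0 (6 at an unadjusted p under 0.05; 0 called in DESeq2 and limma), with 10 above and 1 below 0 and a median of 0.23. GPI, which interconverts glucose and fructose 6-phosphate, had 1488 ± 83.7 CPM in OE_GPX3 and 1246 ± 121 CPM in Vector (SD, n = 3 each; log2 fold change 0.26, edgeR adjusted p = 0.264). ALDOA, an aldolase, had 36.2 ± 3.78 and 28.3 ± 5.66 CPM (OE_GPX3 and Vector, SD, n = 3 each; log2 fold change 0.36, edgeR adjusted p = 0.220). ALDOA overlaps another counted gene on its strand and is uncertain. Without OE_GPX3 replicate 1, ALDOA and the triose phosphate isomerase TPI1 were called, and without Vector replicate 2 ALDOA stood at 0.23. The hexokinase HK2 and the phosphatase TIGAR, with 287 and 132 counts over the 6 libraries, were below limma's floor of 1 mean FPKM. Limma could therefore not call them. DESeq2 gave no adjusted p to SHPK, which had 514 counts, so it may not have been able to call them either.

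Of 12 other NADPH sources, 11 were tested and edgeR called 0 (4 at an unadjusted p under 0.05; 0 called in DESeq2 and limma), with 3 above and 8 below 0 and a median of -0.16. The mitochondrial transhydrogenase NNT had 11.8 ± 1.42 CPM in OE_GPX3 and 15.9 ± 0.594 CPM in Vector (SD, n = 3 each; log2 fold change -0.43, edgeR adjusted p = 0.183). ALDH1L2, a mitochondrial folate dehydrogenase, stood at a log2 fold change of -0.53 (edgeR adjusted p = 0.252), and both overlap genes on the other strand. DESeq2 gave ALDH1L2 no adjusted p and limma did not test it, so neither could call it. Of 14 NADPH users, 14 were tested and edgeR called 0 (3 at an unadjusted p under 0.05; 0 called in DESeq2 and limma), with 7 above and 7 below 0 and a median of 0.03. The fatty acid synthase FASN stood at a log2 fold change of 0.28 and the thioredoxin reductase TXNRD1, which overlaps the counted pseudogene RPL18AP3, at -0.25. After GC and length correction NNT stood at -0.25, FASN at 0.12 and TXNRD1 at -0.14. Without Vector replicate 2, ALDH1L2 stood at -0.30 and FASN at 0.14.

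Of 24 genes of the NRF2 axis, 24 were tested and edgeR called 0 (5 at an unadjusted p under 0.05), with 10 above and 14 below 0 and a median of -0.06. NFE2L2, which encodes NRF2, had 22.9 ± 2.09 CPM in OE_GPX3 and 32.8 ± 1.63 CPM in Vector (SD, n = 3 each; log2 fold change -0.52, edgeR adjusted p = 0.0517). The cystine transporter SLC7A11 had 62.1 ± 5.34 CPM in OE_GPX3 and 83.6 ± 5.89 CPM in Vector (SD, n = 3 each; log2 fold change -0.43, edgeR adjusted p = 0.0691). For both genes the groups did not overlap, as for 9.9% of tested genes in that direction, and DESeq2 called both while limma called 0. Both were also called with total counts alone, with no filter on low counts, with the replicate block and without OE_GPX3 replicate 1. NFE2L2 was called under upper-quartile scaling and without Vector replicate 1 as well. Of the 17 alternatives, 10 left NFE2L2 and 12 left SLC7A11 without a call. Over all 17 alternatives the edgeR, DESeq2 or limma adjusted p ran from 0.0180 to 0.619 for NFE2L2 and from 0.0280 to 0.619 for SLC7A11, the highest being without Vector replicate 2 for both. After GC and length correction NFE2L2 stood at -0.43 (edgeR adjusted p = 0.162) and SLC7A11 at -0.22 (edgeR adjusted p = 0.361). NFE2L2 overlaps AGPS on the other strand and its counts are uncertain. The NRF2-responsive members PGD, TKT and TALDO1 had log2 fold changes of 0.15, 0.10 and 0.09 in the same libraries without that correction. After GC and length correction these members stood at 0.09, 0.04 and -0.02.

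**Figure D5:**
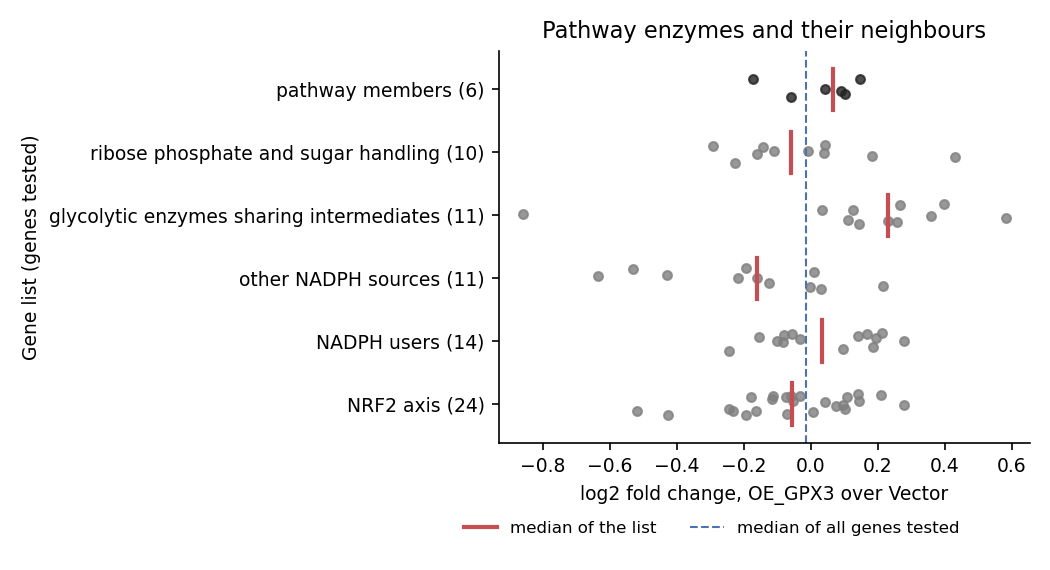
Log2 fold change of OE_GPX3 over Vector for the tested genes of 6 lists, with the number tested in parentheses; each point is a gene, scattered vertically at random, red lines are list medians and the dashed line is the median of all genes tested. The 6 enzymes lie between -0.17 and 0.15, and list medians run from -0.16 to 0.23.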

How the data were processed

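Per the file headers, the authors deposited counts per gene and library and FPKM for 58735 genes in 6 libraries, with 0 columns of other samples. The build was hg38, as the submitters' processing notes name it, while aligner, counter and strand setting were not given in the sources used here. In the deposited FPKM each count is divided by gene length and by 1 constant per library, which differs from the total count by -4.52% to 4.90%.

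Counts were filtered with edgeR 4.0.16 (filterByExpr, minimum count 10, minimum total 15; 14458 genes left), scaled by TMM and tested, OE_GPX3 over Vector, by the quasi-likelihood test (robust, two-sided, Benjamini-Hochberg over all genes tested, threshold 0.05). The biological coefficient of variation was 0.110. Alternatives used DESeq2 1.42.0, other scalings and filters, each library left out, a replicate block, GC content and length, and limma 3.58.1 on log2(FPKM + 1) and log2(FPKM + 0.1) for genes of at least 1 mean FPKM. GC and 50-base words came from GENCODE release 29 transcripts. The procedure was tested on simulated data.

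Members and lists were chosen with earlier results of these data known. Named are the 6 members, GPX3, overlapping genes, the 3 genes nearest to each member, and of each list the called genes or the 2 with the smallest p. PRPS1, TPI1, HK2, MTHFD2 and TIGAR were named after their values were seen.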

Additional observations from a re-analysis of the deposited data

How the results depend on the processing

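The count of members called was 0 of 6 in all 17 alternatives. The count of all genes called was 38 with edgeR and moved to 116 with DESeq2, 68 with total counts alone, 129 with no filter on low counts, 231 with the replicate block, 8 after GC and length correction, 85 after that correction with the replicate block, and 10 and 11 with limma on log2(FPKM + 1) and log2(FPKM + 0.1). With 1 library left out it ran from 1 to 657. The replicate numbers were not taken as pairs: deviations from group means correlated at 0.19, 0.01 and 0.11 between same-numbered libraries, and 2 of the 3 OE_GPX3 libraries were closest to their own number. With the replicate block the member log2 fold changes ran from -0.18 for RPE to 0.15 for PGD. PGLS changed sign with total counts alone (-0.0201), after GC and length correction (-0.12) and after it with the replicate block (-0.13), and ran from -0.0043 to 0.15 with 1 library left out. TALDO1 changed sign after GC and length correction (-0.0166), also with the replicate block (-0.0174). Over the same omissions PGD ran from 0.12 to 0.20, TKT from 0.06 to 0.19, TALDO1 from 0.04 to 0.16, RPE from -0.26 to -0.07 and RPIA from -0.14 to -0.00044. The cause of these changes was not tested. Shares of summed FPKM were the same from counts per gene length by construction, since the deposited FPKM use those counts and lengths. That comparison is therefore no check of the shares, and other gene lengths were not tried. Counting error limits RPIA most, at 202 to 252 counts per library.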

Other observations

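TIGAR, a phosphatase that lowers fructose 2,6-bisphosphate and is known to steer glucose toward the pentose phosphate pathway, was low, with 132 counts over the 6 libraries. It had 1.18, 0.590 and 0.908 CPM in OE_GPX3, against 1.75, 1.49 and 1.65 CPM in Vector. The groups did not overlap, as for 9.9% of all tested genes in that direction. The log2 fold change of -0.86 did not pass the adjustment (edgeR adjusted p = 0.277). MTHFD2, a mitochondrial folate enzyme, had 113, 147 and 155 CPM in OE_GPX3, against 163, 288 and 195 CPM in Vector, again with no overlap. Its log2 fold change was -0.64 (edgeR adjusted p = 0.288). MTHFD2 was called with no filter on low counts, with the replicate block, without OE_GPX3 replicate 1 and without Vector replicate 1. The other 13 of the 17 alternatives did not call it. Among them were DESeq2, limma, GC and length correction, and the omission of Vector replicate 2, its highest library.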
